A study of Mus musculus with 9 samples.

Results

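The genes described here are Gadd45a, Gadd45b and Gadd45g, which form the Gadd45 family, and Cdkn1a, which encodes the CDK inhibitor p21. They were chosen by symbol: every transcript of the deposited table that carries 1 of these 4 symbols is a member, and its counts were used both alone and summed per gene. The members are 4 of 54325 gene symbols and 17 of 140658 transcripts, with 7 transcripts for Gadd45a, 3 for Gadd45b, 2 for Gadd45g and 5 for Cdkn1a. At least 1 count was recorded for 14 of the 17 transcripts, while Gadd45a-203, Gadd45a-206 and Gadd45a-207 had no count in any library.

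Nonsense-mediated mRNA decay (NMD) degrades mRNAs on which translation ends in an unfavorable context, and it also lowers many normal mRNAs. UPF1, the central NMD helicase, is phosphorylated once it is engaged on such an mRNA, so RNA that is recovered with antibody to phosphorylated UPF1 (p-UPF1) is a footprint of that step. The GADD45 proteins are small acidic stress sensors that bind MAP kinase kinase kinases and cell cycle proteins, and their mRNAs are known NMD targets in other systems. p21 is induced by p53, inhibits cyclin-dependent kinases and binds PCNA.

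All libraries derive from N2A cells, a mouse neuroblastoma line, and all cells, controls included, had received 200 nM okadaic acid, a phosphatase inhibitor, for 2 h. RNA fragments of the p-UPF1 IP (3 libraries) were compared with RNA prepared without IP (input, 3 libraries) and with RNA from a control IP using rabbit IgG (rIgG IP, 3 libraries). No cells without okadaic acid and no cells with reduced UPF1 are among these libraries, and nothing in the labels ties a library to a separate culture, so p-values measure the spread between these libraries, which may be technical. Total counts ranged from 25184464 to 29857955 for input, from 5312526 to 6246110 for the p-UPF1 IP and from 79010 to 474491 for the rIgG IP. In the rIgG IP libraries 3 counts are worth 6.32 to 38.0 CPM (counts for each 1e+06 of the library's total), against 0.1 to 0.119 CPM in input and 0.480 to 0.565 CPM in the p-UPF1 IP, and these floors, like the intervals given here, cover counting error only. The neuroblastoma character of the cells was evident in input, where each of 12 neuroblastoma markers had counts and their summed level, here and in the next sentences scaled by edgeR's trimmed mean of M-values (TMM) and so not on the scale of the floors, was 254 to 278 CPM, whereas 8 markers of other cell types summed to 2.79 to 3.49 CPM, with Alb and Krt14 at 0. In the p-UPF1 IP these sums were 207 to 219 CPM and 8.30 to 12.1 CPM, the latter led by Mbp at 9.03 CPM, with Ptprc, Cd68, Alb, Gfap and Krt14 at 0. In the rIgG IP they were 160 to 256 CPM, with Dbh and Th at 0, and 0 to 8.02 CPM, with Ptprc, Cd68, Col1a1, Alb and Krt14 at 0. Their part in the results was not tested.

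Gadd45a lies at chr6:67035096-67037457 on the minus strand, Gadd45b at chr10:80930073-80932204 on the plus strand, Gadd45g at chr13:51846678-51848468 on the plus strand and Cdkn1a at chr17:29090976-29100727 on the plus strand (GRCm38, GENCODE M21). Each Gadd45 gene has a main mRNA of 4 exons. Gadd45a-201 is 1223 nt long with a 5′ UTR of 162 nt and a 3′ UTR of 563 nt, Gadd45b-201 is 1284 nt long with UTRs of 243 and 558 nt, and Gadd45g-201 is 1071 nt long with UTRs of 102 and 489 nt. The median protein-coding transcript tested was 2848 nt long and had a 3′ UTR of 876 nt (n = 19995), so these mRNAs are short, with short 3′ UTRs. None of the 3 has an ATG in its 5′ UTR or an exon junction more than 50 nt after its stop codon. These are annotation features that NMD is known to respond to. Of the tested protein-coding transcripts, 43.55% had an upstream open reading frame (uORF, an ATG with an in-frame stop before the main start) and 0.62% had such a junction. These shares cover only transcripts that the annotation types as protein coding, with a complete coding sequence, and not other types. The 3 mRNAs are of that type too, so their lack of such a junction is part of the annotation and not a result. The windows around the translation start and stop of the 3 mRNAs are shown because NMD depends on where translation begins and ends, with the start or stop codon in capitals.
Gadd45a-201 start: cgcacttgcaatATGactttggaggaattc
Gadd45b-201 start: tgtgactgcatcATGaccctggaagagctg
Gadd45g-201 start: gtggatcgcacaATGactctggaagaagtc
Gadd45a-201 stop: aatctcccggaacggTGAtggcatccgaat
Gadd45b-201 stop: tctctagaggaacgcTGAgacccactccaa
Gadd45g-201 stop: atcacccttcccgagTGAcagcctggcagg
From the ATG on, 12 of the 18 bases shown are the same in all 3 mRNAs, against 3 of the 12 bases before it. All 3 reading frames end in TGA.

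The protein-coding transcripts of Cdkn1a differ in their leaders. Cdkn1a-205 is 2080 nt long with a 5′ UTR of 266 nt, a 3′ UTR of 1334 nt and 1 uORF. Cdkn1a-203 is 1172 nt long with a 5′ UTR of 508 nt, a 3′ UTR of 184 nt and 5 uORFs. Cdkn1a-202 has 2 uORFs and a 3′ UTR of 308 nt, Cdkn1a-201 has no uORF and a 3′ UTR of 1329 nt, and Cdkn1a-204 is a processed transcript of a single exon without a coding sequence. The 5′ UTRs of Cdkn1a-205, Cdkn1a-202 and Cdkn1a-203 hold 3, 3 and 6 ATGs, and that of Cdkn1a-201 holds none. An ATG without an in-frame stop before the main start is not counted as a uORF. All 4 coding transcripts have a coding sequence of 480 nt, and none has a junction more than 50 nt after the stop codon. The uORFs of at most 30 nt are printed because they set these leaders apart, with the ATG and the stop codon in capitals.
Cdkn1a-205 uORF: ATGcgcTGA
Cdkn1a-202 uORF, upstream: ATGaatggagacagagaccccagaTAA
Cdkn1a-202 uORF, downstream: ATGgagacagagaccccagataatTAA
Cdkn1a-203 uORF of 30 nt: ATGgagttaatcaccaagacagcagggTAG
Cdkn1a-203 uORF of 24 nt: ATGaagaacacgttagcacatTGA
Cdkn1a-203 uORF of 9 nt: ATGgggTAG
Both uORFs of Cdkn1a-202 overlap in different frames, as their sequences start 4 nt apart.

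To determine which of the 4 mRNAs were recovered with p-UPF1, summed counts of the p-UPF1 IP were first compared with input. All 3 Gadd45 genes were higher in the p-UPF1 IP and Cdkn1a was lower. Gadd45g and Gadd45b rose most, 20.9-fold and 14.8-fold, Gadd45a rose 2.81-fold, and Cdkn1a fell to 0.497 of its input level. Values below are TMM-scaled CPM, and folds come from edgeR's quasi-likelihood test with Benjamini-Hochberg adjustment over 16919 genes. Of these genes 26.3% were higher, 35.7% were lower and 17.2% were enriched, that is, higher with a log2 fold change above 1. The members thus stand against a background in which most genes were called in some direction, and 3 of 4 being enriched was the count of the members, not a test of them as a group. Below, it is stated for each member whether the libraries of the groups overlapped. How often the libraries of other genes separate fully was not tested.

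**Figure D1:**
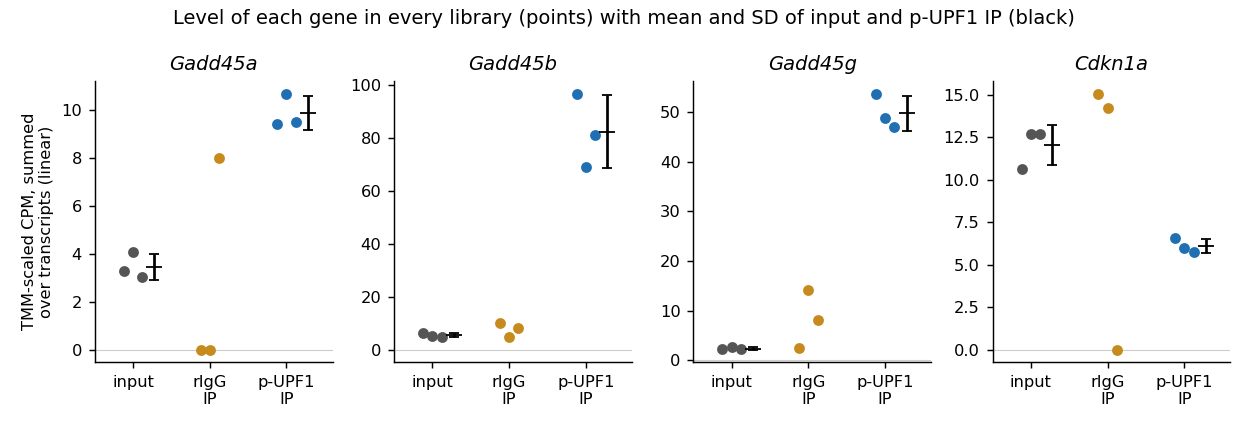
Level of each gene in the 9 libraries, in TMM-scaled CPM summed over transcripts on linear axes that differ between genes, with points for libraries and black bars for mean and SD of input and p-UPF1 IP. The 3 p-UPF1 IP points lie above all input points for Gadd45a, Gadd45b and Gadd45g and below them for Cdkn1a, and the rIgG IP points rest on 0 to 6 counts each. How often other genes separate in this way was not tested.

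Gadd45g, a family member with a role in neural development, was measured at 2.27, 2.58 and 2.17 CPM in the input libraries and at 53.7, 48.8 and 47.0 CPM in the p-UPF1 IP libraries. These values rest on 50, 55 and 52 counts and on 302, 333 and 311 counts. All p-UPF1 IP libraries were far above all input libraries, and within each group the libraries were close together (2.34 ± 0.215 against 49.8 ± 3.5 CPM, SD, n = 3). The log2 fold change was 4.38 (SE 0.11, edgeR adjusted p = 7.6e-10), which placed Gadd45g at rank 177 of the 16919 genes by fold change.

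Gadd45b, which is induced by stress and by neuronal activity, was measured at 6.17, 5.30 and 4.83 CPM in input against at 96.6, 69.1 and 80.9 CPM in the p-UPF1 IP. The counts behind them were 136, 113 and 116 for input and 543, 472 and 536 for the p-UPF1 IP. Again the groups did not overlap, although the p-UPF1 IP libraries were spread more widely than for Gadd45g (5.43 ± 0.68 against 82.2 ± 13.8 CPM, SD, n = 3). The log2 fold change was 3.89 (SE 0.14, edgeR adjusted p = 8.01e-09, rank 233).

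Gadd45a, the p53-responsive member of the family, was measured at 3.27, 4.08 and 3.04 CPM in input against at 9.43, 10.7 and 9.51 CPM in the p-UPF1 IP. These correspond to 72, 87 and 73 counts and to 53, 73 and 63 counts. The groups did not overlap (3.46 ± 0.545 against 9.88 ± 0.708 CPM, SD, n = 3), yet the difference was far smaller than for the other family members. The log2 fold change was 1.49 (SE 0.15, edgeR adjusted p = 9.67e-06, rank 2046).

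Cdkn1a went the other way. It was measured at 10.7, 12.7 and 12.7 CPM in input against at 6.58, 6.01 and 5.74 CPM in the p-UPF1 IP, from 235, 271 and 305 counts and from 37, 41 and 38 counts. Every p-UPF1 IP library was below every input library (12.0 ± 1.18 against 6.11 ± 0.432 CPM, SD, n = 3). The log2 fold change was -1.01 (SE 0.13, edgeR adjusted p = 5.25e-05, rank 10665). Many genes fell further: 4484 genes were lower with a log2 fold change below -1.

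Because the median gene had a log2 fold change of -0.42 under TMM scaling and of -0.01 when library totals alone were used, the fold changes were also set against that median. With library totals alone, 5709 genes were higher and 4363 were lower, against 4445 and 6044 under TMM scaling. Relative to the median, Gadd45g was at 4.80, Gadd45b at 4.31 under TMM and 4.30 with totals, Gadd45a at 1.91 and Cdkn1a at -0.59 on the log2 scale under either scaling. Without the subtraction, the log2 fold change of Cdkn1a was -0.60 with library totals. Its direction and its call were the same under each scaling.

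**Figure D2:**
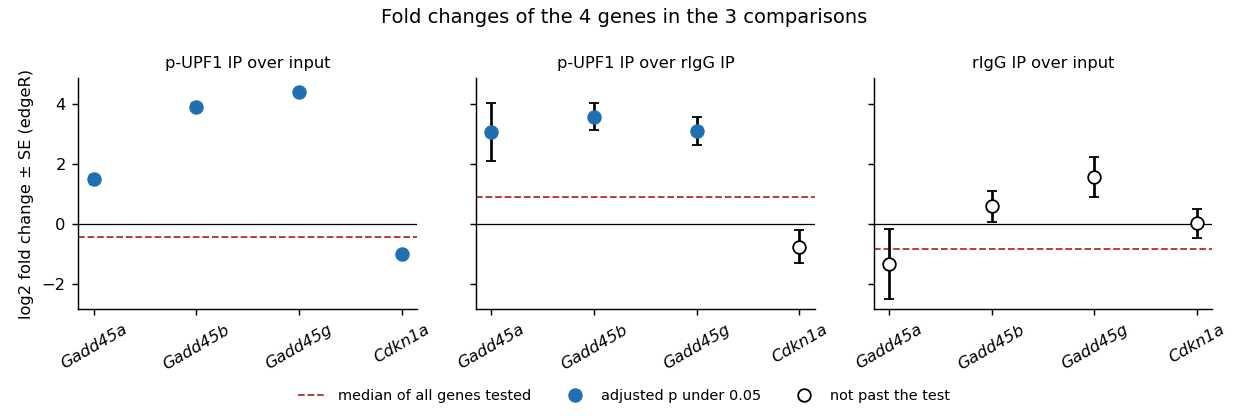
Log2 fold change of each gene with its SE in the 3 comparisons (edgeR), with filled points for an adjusted p under 0.05 and a dashed line at the median of all genes tested; SEs of the left panel are smaller than the points. The Gadd45 genes are filled and above the median in both comparisons of the p-UPF1 IP, whereas no gene is filled when the rIgG IP is compared with input.

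Levels of different genes can be compared only per length. Dividing each transcript's CPM by its length in kb gave, for input, 5.90 ± 0.587 CPM per kb for Cdkn1a, 4.80 ± 0.396 for Gadd45b, 2.95 ± 0.576 for Gadd45a and 2.24 ± 0.148 for Gadd45g (SD, n = 3). With these lengths the libraries of Cdkn1a (5.22 to 6.27) and Gadd45b (4.51 to 5.25) overlapped. The libraries of Gadd45a (2.53 to 3.6) and Gadd45g (2.12 to 2.41) lay close together without overlap. In the p-UPF1 IP the order was Gadd45b at 64.6 ± 10.8, Gadd45g at 46.6 ± 3.38, Gadd45a at 8.19 ± 0.497 and Cdkn1a at 4.49 ± 0.366 CPM per kb, and no neighbours overlapped. By its mean Cdkn1a ranked at the top in input, where its libraries overlapped those of Gadd45b, and at the bottom in the p-UPF1 IP. With a single count-weighted length per gene the means of input were 6.06, 4.31, 2.88 and 2.19 and those of the p-UPF1 IP were 65.3, 46.8, 8.21 and 3.08, in the same orders. With that length the input libraries of Cdkn1a (SD 0.594) and Gadd45b (SD 0.540) did not overlap. Whether this pair differed in input thus depended on the length used.

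Ratios between the members within a library do not depend on any scaling of libraries. The ratio of Gadd45g to Cdkn1a counts was 0.213, 0.203 and 0.171 in input against 8.16, 8.12 and 8.18 in the p-UPF1 IP, so Gadd45g went from the rarer to the more frequent of the pair in every library. The ratio of Gadd45b to Cdkn1a was 0.579, 0.417 and 0.380 in input against 14.7, 11.5 and 14.1 in the p-UPF1 IP, and that of Gadd45a to Cdkn1a was 0.306, 0.321 and 0.239 against 1.43, 1.78 and 1.66. Within the family, Gadd45b to Gadd45a was 1.89, 1.30 and 1.59 in input against 10.2, 6.47 and 8.51 in the p-UPF1 IP, and Gadd45g to Gadd45a was 0.694, 0.632 and 0.712 against 5.70, 4.56 and 4.94. The family members were therefore recovered unequally: the gain of Gadd45a was smaller than that of the others by 5.25-fold relative to Gadd45b and by 7.43-fold relative to Gadd45g (geometric means). Gadd45g to Gadd45b changed least, from 0.368, 0.487 and 0.448 to 0.556, 0.706 and 0.580, a 1.42-fold difference. For each ratio the groups were apart and the two-sided exact permutation test gave p = 0.1, the smallest that 3 libraries against 3 allow. The ratios come from the same 4 genes and are not independent. How often the ratios of other gene pairs separate in this way was not tested.

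**Figure D3:**
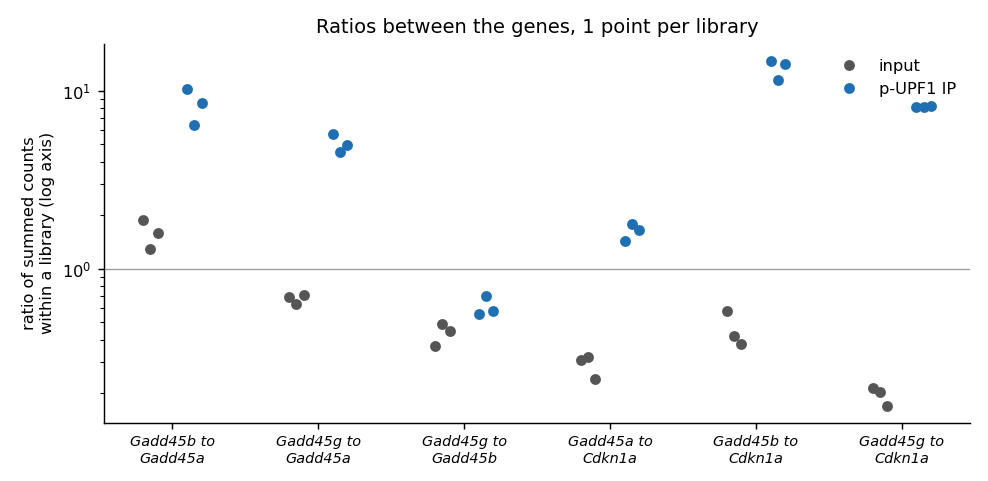
Ratio of the summed counts of 2 members within each input and p-UPF1 IP library, on a log axis, with 1 point per library and a line at a ratio of 1. The input and p-UPF1 IP points of each pair are apart, and Gadd45g to Gadd45b is the pair whose groups lie closest, 1.42-fold apart. How often other gene pairs separate was not tested.

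In counts, Gadd45a made up 30.8% ± 3.13 of the family in input and 7.05% ± 1.21 in the p-UPF1 IP, Gadd45g 20.8% ± 1.27 and 35.3% ± 2.34, and Gadd45b 48.4% ± 4.21 and 57.7% ± 3.51 (SD, n = 3). The share of Gadd45a fell and the shares of the others rose in every p-UPF1 IP library relative to every input library. These shares are of counts, not of molecules per length. How often shares within other gene families separate in this way was not tested.

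To find out whether recovery depended on the antibody to p-UPF1, the p-UPF1 IP was next compared with the rIgG IP. The rIgG IP libraries held 0, 0 and 1 counts of Gadd45a, 4, 1 and 1 of Gadd45b, 1, 3 and 1 of Gadd45g and 6, 3 and 0 of Cdkn1a. With so few counts the level of a member in a single rIgG IP library was not measurable, and counts were pooled over the group. Per total count, the p-UPF1 IP exceeded the rIgG IP 11.2-fold for Gadd45b (95% exact interval 5.11 to 30.4), 8.16-fold for Gadd45g (3.48 to 25.2) and 8.15-fold for Gadd45a (1.45 to 324). For Cdkn1a the ratio was 0.556 (0.283 to 1.25). The intervals of the Gadd45 genes thus lay above 1, that of Gadd45a barely and on the basis of 1 rIgG count, and the interval of Cdkn1a included 1. A ratio above 1 was not particular to them. With library totals alone, the median gene tested in this comparison had a log2 fold change of 0.82. The interval of Gadd45a included that median, those of Gadd45b and Gadd45g lay above it and that of Cdkn1a lay below it.

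In the edgeR test of this comparison, over 12033 genes of which 18.5% were higher and with a median log2 fold change of 0.91, all 3 Gadd45 genes passed. Each member had fewer than 10 counts in the rIgG IP as a group and entered this test through its p-UPF1 IP counts. The calls are therefore not counted as support. The log2 fold change was 3.57 for Gadd45b (SE 0.44, adjusted p = 1.05e-06), 3.10 for Gadd45g (SE 0.47, adjusted p = 1.93e-05) and 3.06 for Gadd45a (SE 0.97, adjusted p = 0.022). By fold change they stood at ranks 2472, 2663 and 2685 of the 12033 genes, so many genes had larger values. Cdkn1a did not pass (-0.75, SE 0.55, edgeR adjusted p = 0.338). The call of Gadd45a was lost with DESeq2 (adjusted p = 0.0863 on the same libraries), without rIgG IP replicate 1 (log2 fold change 1.94, edgeR adjusted p = 0.262) and without rIgG IP replicate 2 (2.48, edgeR adjusted p = 0.109). The calls of Gadd45b and Gadd45g were kept under each of 14 alternatives. These reuse the same counts, so the calls are still not counted as support.

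The rIgG IP was also compared with input as a measure of background. None of the 4 genes passed edgeR's test over 16280 genes, of which 0.584% were higher and 0.313% were lower. At an unadjusted p under 0.05 there were 2011 genes, Gadd45g among them. Pooled per total count, the rIgG IP stood to input at 3.40 for Gadd45g (95% exact interval 1.09 to 8.11), 1.76 for Gadd45b (0.640 to 3.86), 1.19 for Cdkn1a (0.540 to 2.26) and 0.461 for Gadd45a (0.0116 to 2.59). Gadd45g therefore had a pooled interval above 1 in the background IP, on 5 counts, while its log2 fold change of 1.57 did not pass (SE 0.66, edgeR adjusted p = 0.385). With DESeq2 the count of members past this test was also 0. The comparisons of the p-UPF1 IP with input and with the rIgG IP share the p-UPF1 IP libraries, so they are not independent of each other.

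By transcript, Gadd45a-201, Gadd45b-201 and Gadd45g-201 carried nearly all counts of their genes in the p-UPF1 IP. Gadd45g-201 had 50, 55 and 32 counts in input but 296, 333 and 309 after p-UPF1 IP, Gadd45b-201 had 120, 95 and 87 against 536, 466 and 534, and Gadd45a-201 had 70, 80 and 71 against 48, 73 and 63. Of the 17 member transcripts 10 had enough counts to be tested, and these 3 were higher in the p-UPF1 IP than in input, in a comparison in which 9.44% of 42616 transcripts were higher. Their log2 fold changes were 4.25 for Gadd45g-201 (SE 0.28, edgeR adjusted p = 0.000483), 3.85 for Gadd45b-201 (SE 0.22, edgeR adjusted p = 0.00034) and 1.21 for Gadd45a-201 (SE 0.19, edgeR adjusted p = 0.00725), close to those of the summed genes. By fold change they stood at ranks 4229, 4608 and 10246 of the 42616 transcripts, whose median was -0.95. Many transcripts thus had larger values. The call of Gadd45a-201 was lost when all 9 libraries were fitted together (edgeR adjusted p = 0.0503). The other 7 did not pass.

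Against the rIgG IP, 9 member transcripts were tested, in a comparison in which 12.7% of 23034 transcripts were higher and the median log2 fold change was 4.12. Gadd45b-201 had 2, 0 and 0 counts in the rIgG IP and a log2 fold change of 5.60 (SE 0.65, edgeR adjusted p = 0.0159), and Gadd45g-201 had 0, 2 and 0 counts and a log2 fold change of 4.78 (SE 0.83, edgeR adjusted p = 0.027). By fold change they stood at ranks 5865 and 8788, so they were not far above the median transcript tested. Gadd45a-201 also passed (edgeR adjusted p = 0.0282), but it had no count in any rIgG IP library. All 3 transcripts reached the minimum summed count of 10 only through the p-UPF1 IP, Gadd45a-201 with 184 counts there. Their calls are therefore not counted as support. When 3 counts are allowed for the rIgG group, recovery of Gadd45a-201 with p-UPF1 was at least 2.65-fold higher per total count. That bound lay below the median transcript tested, whose log2 fold change was 4.07 with library totals alone. It comes from the same counts and is not counted as support either. All 3 calls were lost when any p-UPF1 IP library was left out, in fits that called only 1 or 2 transcripts in all. The log2 fold changes stayed at 5.52 to 5.74 for Gadd45b-201 and at 4.73 to 4.80 for Gadd45g-201 there. The call of Gadd45g-201 was also lost with library totals alone (edgeR adjusted p = 0.0501).

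The share of each gene's counts that fell on a given transcript was not constant between groups. Gadd45b-201 made up 88.2%, 84.1% and 75.0% of Gadd45b in input against 98.7%, 98.7% and 99.6% in the p-UPF1 IP. Gadd45b-203, a coding transcript with 1 uORF whose annotated 3′ UTR is only 6 nt long, had 12, 15 and 21 counts in input but 6, 2 and 0 after p-UPF1 IP. Gadd45b-202, which retains an intron, had 4, 3 and 8 counts against 1, 4 and 2. The share of Gadd45b-201 was higher in every p-UPF1 IP library than in every input library. How often the transcript shares of other genes separate between the groups was not tested, here or for Cdkn1a below. For Gadd45a-201 the shares were 97.2%, 92.0% and 97.3% in input against 90.6%, 100% and 100% in the p-UPF1 IP, so the groups overlapped. Gadd45g-202, which retains an intron, had 0, 0 and 20 counts in input but 6, 0 and 2 after p-UPF1 IP, and the 20 counts in input replicate 3 stood alone.

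Cdkn1a counts were spread over its transcripts very differently. Cdkn1a-205 had 219, 265 and 280 counts in input, 93.2%, 97.8% and 91.8% of the gene. In the p-UPF1 IP it had 0, 14 and 17 counts, 0%, 34.1% and 44.7% of the gene, where a count of 0 among 37 allows a share of up to 9.41% (95% Wilson interval). All input libraries were above all p-UPF1 IP libraries (exact permutation test, two-sided p = 0.1, the smallest possible), but the p-UPF1 IP libraries differed widely among themselves. Cdkn1a-203, the transcript with 5 uORFs, had 3, 6 and 7 counts in input but 25, 13 and 3 after p-UPF1 IP. Cdkn1a-202 had no count in any input library and 0, 8 and 14 in the p-UPF1 IP, and Cdkn1a-201 had 12, 0 and 17 against 12, 6 and 4. The share of Cdkn1a-203 was above that of input in each p-UPF1 IP library, at 67.6%, 31.7% and 7.89% against 1.28%, 2.21% and 2.30%. In p-UPF1 IP replicate 3 it rests on 3 of 38 counts. Its 95% Wilson interval there, 2.72% to 20.8%, overlapped that of input replicate 3, 1.12% to 4.66%.

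None of these Cdkn1a transcripts passed edgeR's test between the p-UPF1 IP and input: Cdkn1a-205 had a log2 fold change of -3.19 (SE 1.03, adjusted p = 0.0716), Cdkn1a-203 of 2.90 (SE 0.94, adjusted p = 0.0745) and Cdkn1a-201 of 1.18 (SE 1.41, adjusted p = 0.548). Cdkn1a-205 passed with DESeq2 on these libraries (-3.08, adjusted p = 0.0187), with filterByExpr (-3.08, edgeR adjusted p = 0.0425) and without p-UPF1 IP replicate 1 (-2.55, edgeR adjusted p = 0.0032), but not with DESeq2 on all 9 libraries (-2.49, adjusted p = 0.164) or under the other 10 alternatives. Cdkn1a-203 passed with DESeq2 on these libraries (3.05, adjusted p = 0.0103) and on all 9 (3.67, adjusted p = 0.0275), with library totals alone (3.59, edgeR adjusted p = 0.0425) and without p-UPF1 IP replicate 3 (3.42, edgeR adjusted p = 0.0252), but not under the other 9 alternatives that tested it. The split rests on few positions that tell the transcripts apart, since only 10.6% of the 35-nt windows of Cdkn1a-205, 3.72% of those of Cdkn1a-202 and 2.34% of those of Cdkn1a-201 occur in no other Cdkn1a transcript. For Cdkn1a-203 the share was 43.5%, but 92 of its 1138 windows also occur in other genes. For Gadd45a-201, Gadd45b-201 and Gadd45g-201 it was 30.5%, 45.3% and 33.1%, and no window of theirs occurs in other genes.

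**Figure D4:**
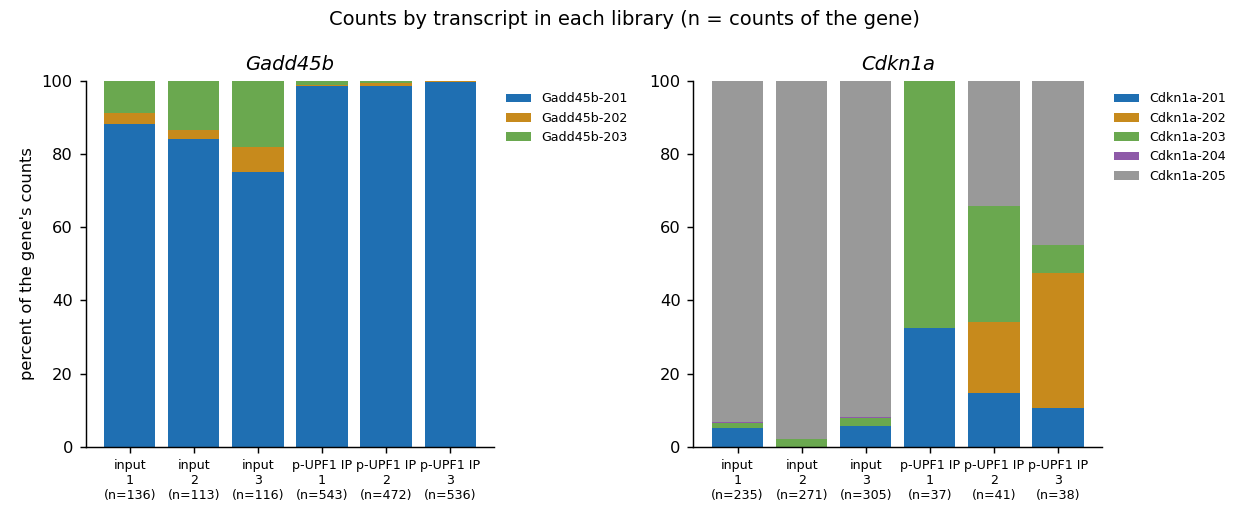
Percent of the counts of Gadd45b and of Cdkn1a that fell on each of their transcripts, in the input and p-UPF1 IP libraries, with the number of counts of the gene under each bar. Gadd45b-201 fills 98.7% or more of the p-UPF1 IP bars, whereas Cdkn1a-205 fills 91.8% or more of the input bars and at most 44.7% of the p-UPF1 IP bars. How often the transcript shares of other genes separate was not tested.

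The genes around the members were described from lists of their partners, targets and pathways, again in the p-UPF1 IP over input. Among 13 tested genes for GADD45 partners and stress kinases, 4 were higher, 6 were lower and 3 did not pass, with a median log2 fold change of -0.10 against -0.42 for all genes. Gadd45gip1, which encodes a mitochondrial ribosomal protein that binds GADD45G, rose by 2.28 (SE 0.12, edgeR adjusted p = 7.13e-08), and Map2k7, a kinase that GADD45B inhibits, rose by 1.80 (SE 0.08, edgeR adjusted p = 2.47e-08). Mapk8, the JNK1 kinase downstream of Map2k7, fell by 1.32 (SE 0.11, edgeR adjusted p = 3.04e-06).

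The other genes named GADD, which are unrelated to the family in sequence, were both higher. Ddit3 (GADD153, the transcription factor CHOP) rose by 3.61 (SE 0.09, edgeR adjusted p = 8.76e-10) and Ppp1r15a (GADD34, a regulatory subunit of the eIF2α phosphatase) rose by 3.40 (SE 0.08, edgeR adjusted p = 5.83e-10). These values lie between those of Gadd45a and Gadd45b. Against the rIgG IP their log2 fold changes were 3.36 (SE 0.36, edgeR adjusted p = 1.13e-07) and 4.01 (SE 0.31, edgeR adjusted p = 4.46e-10).

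Of the genes that p21 acts on, 9 CDKs, cyclins and Pcna were tested, of which 2 were higher, 5 were lower and 2 did not pass, with a median of -0.23. Ccnd1, encoding cyclin D1, rose by 1.46 (SE 0.08, edgeR adjusted p = 9.96e-08). Ccna2, encoding cyclin A2, fell by 1.68 (SE 0.17, edgeR adjusted p = 8.95e-06), and Pcna, the replication clamp, fell by 1.80 (SE 0.18, edgeR adjusted p = 1.15e-05). Ccnd3, encoding cyclin D3 and named after its values were seen, was the other higher gene (0.62, SE 0.24, edgeR adjusted p = 0.0455). Pcna and Cdk1 are also on the list of GADD45 partners. The count of higher genes was 4 with library totals alone and with DESeq2 on all 9 libraries, and 1 under 8 other alternatives, among them the omission of input replicate 1 or 2 or of p-UPF1 IP replicate 1 or 3.

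Other CDK inhibitors did not all share the direction of Cdkn1a. Of 5 tested, 2 were higher, 1 was lower and 2 did not pass, with a median of 1.06. Cdkn2c, encoding p18, rose by 1.86 (SE 0.22, edgeR adjusted p = 4.16e-05) and Cdkn1b, encoding p27, which belongs to the same Cip/Kip family as p21, rose by 1.06 (SE 0.08, edgeR adjusted p = 8.58e-07). Cdkn2a, which encodes p16 and ARF, fell by 0.57 (SE 0.19, edgeR adjusted p = 0.027), a call that was lost with library totals alone, with DESeq2 on all 9 libraries and when p-UPF1 IP replicate 2 or 3, or 1 of input replicates 1 and 3, was left out. The test of Cdkn1b and that of Cdkn1a each passed in opposite directions, and the direction of both was the same with library totals.

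Of 23 tested genes on the list of p53 and its other targets, 10 were higher, 6 were lower and 7 did not pass, with a median of 0.65. Sesn2, a stress-induced inhibitor of mTORC1 signaling, rose by 2.67 (SE 0.07, edgeR adjusted p = 1.1e-09), its relative Sesn1 by 2.55 (SE 0.10, edgeR adjusted p = 1.5e-08) and Bax, an effector of apoptosis, by 1.23 (SE 0.09, edgeR adjusted p = 1.17e-06). Gadd45a and Cdkn1a, both p53 targets, thus lie on opposite sides of this median. Among the cell markers, Gata2 was higher (1.83, SE 0.07, edgeR adjusted p = 9.83e-09), Stmn2 and Chgb were lower (-2.37 and -2.02, edgeR adjusted p = 2e-08 and 3.55e-07), with 4 of 12 neuroblastoma markers higher, 4 lower and 4 not past the test. Of 2 markers of other cell types that could be tested, Mbp was higher (2.83, SE 0.26, edgeR adjusted p = 4.52e-06) and Pecam1 did not pass (-0.62, SE 0.32, edgeR adjusted p = 0.114).

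**Figure D5:**
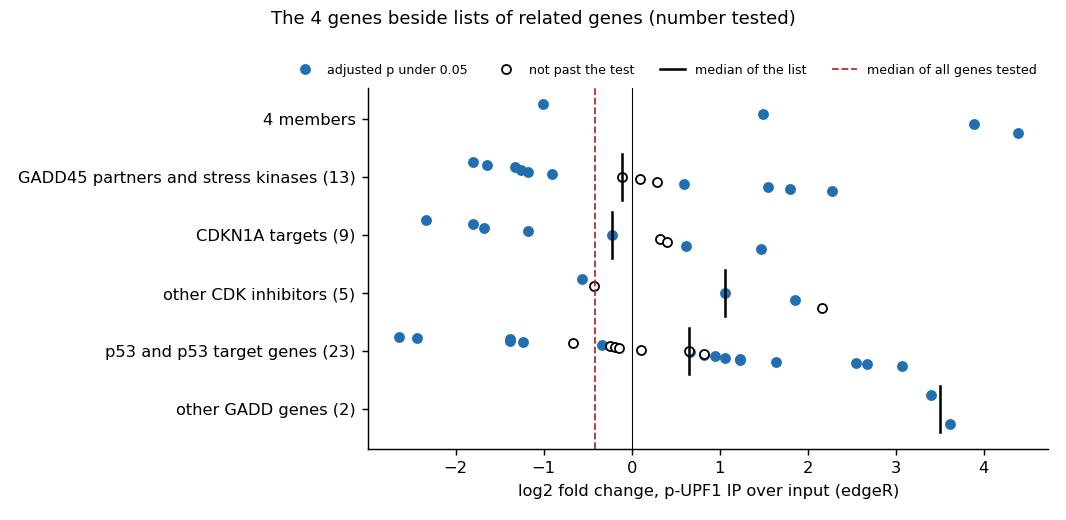
Log2 fold change of the p-UPF1 IP over input (edgeR) for the 4 members and for the tested genes of 5 lists, with filled points for an adjusted p under 0.05, black bars at list medians and a dashed line at the median of all genes, -0.42. Gadd45b and Gadd45g lie to the right of every gene on the lists, and Gadd45a and Cdkn1a lie within their range.

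The genes whose profiles over the 9 libraries were most like each member were found among 11049 genes by the mean absolute difference of log2(CPM + 1) after centring. For Gadd45b they were Snhg15 (0.16), Ddit3 (0.25) and Gas5 (0.27), for Gadd45g they were Snord4a (0.18), Gm25506 (0.19) and Snord55 (0.23), for Gadd45a they were 4931428F04Rik (0.12), Smg9 (0.13) and Commd9 (0.14), and for Cdkn1a they were Nudt4 (0.04), Chchd3 (0.09) and Cyfip1 (0.11), all as mean differences on the log2 scale. Ddit3 is the only gene of these that is also on a list above. Between members the closest pair was Gadd45b and Gadd45g (0.59), and Cdkn1a was farthest from Gadd45g (2.24). The points share libraries whose depth differs by group, and the rIgG IP values rest on few counts. Without the rIgG IP libraries none of these 12 genes was among the nearest, so the choice of the nearest genes rests on those libraries, whereas 8 of 12 were kept with a pseudocount of 5.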

How the data were processed

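RNA of N2A cells was studied by RIP-seq footprinting in 9 libraries of 3 groups, taken from the sample titles. The authors removed adapters with FastP, keeping reads of at least 35 nt, aligned them with STAR 2.7.0f to GRCm38 with Gencode annotation, and quantified transcripts with Salmon 0.13.1. The deposited values are estimated counts (expected counts) per transcript, whole numbers that are not scaled for depth. The rounding step is not given in the sources used here, and 0 columns were left without a library. Because reads are short, Salmon divides reads that several transcripts share, so counts were also summed per gene symbol.

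Groups were tested pairwise in edgeR 4.0.16 (R 4.3.3; TMM, quasi-likelihood test, Benjamini-Hochberg adjustment) on its 6 libraries, over features with a summed count of at least 10, at an adjusted p under 0.05. The authors' DESeq2 (1.42.0 here) was an alternative, as were other scalings and filters, all 9 libraries in one fit, a replicate block and the omission of each library. Pooled ratios have exact conditional binomial intervals and shares have Wilson intervals, at 95%. Replicates differed by more than sampling noise. Annotation and sequence came from GENCODE M21, in which 139921 of 140658 transcripts were matched, and which precedes the authors' release on the same build. Scripts were tested on simulated data. The members and gene lists were chosen with earlier results of these data known. Named genes are the members, the 3 genes of each list with the smallest p for p-UPF1 IP over input, and the 3 genes nearest in profile to each member.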

Additional observations from a re-analysis of the deposited data

How the results depend on the processing

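Of 12 log2 fold changes of the 4 genes, 10 kept their direction and their side of the threshold under all 14 alternatives. For fold changes over the rIgG IP this is not counted as support, because the alternatives reuse the same few rIgG IP counts. Gadd45a over the rIgG IP was not past the threshold with DESeq2 on the 6 libraries (2.54) or on all 9 (2.57), RLE factors (2.78), filterByExpr (2.7) and the replicate block (3.02), and leaving out 1 library gave 1.94 to 8.29, the highest without rIgG IP replicate 3, which holds the only count. Cdkn1a in the rIgG IP over input, 0.03, changed sign without a filter (-0.0072), with the replicate block (-0.002) and without rIgG IP replicate 1 (-0.43) or 2 (-0.07), with up to 0.27 without another library. Of the member transcripts, 5 rather than 3 passed over input with DESeq2 on the 6 libraries. That fit called 5750 of all 42616 transcripts higher and 8456 lower, against 4023 and 7329 in the main fit. With 1 library left out 3 to 5 passed. The 5 came without p-UPF1 IP replicate 1, where 3925 of 41283 transcripts were higher and 6935 lower. Over the rIgG IP 0 to 3 passed, the 0 when a p-UPF1 IP library was left out, where 1 or 2 of all transcripts passed. In the rIgG IP over input 1 transcript passed with DESeq2 on all 9 libraries (Gadd45b-202), and 0 to 1 with 1 library left out. That DESeq2 fit called 986 of 78824 transcripts higher and 296 lower. The causes were not tested.

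Libraries of the same number showed no shared deviation (r from -0.0297 to 0.0509). With 3 libraries per group this cannot tell whether they share a culture, which the labels do not state. The replicate block left 1123 rather than 4023 transcripts higher over input, Gadd45a-201 no longer among them (1.21, edgeR adjusted p = 0.0849). Over all alternatives, 1214 to 2432 genes were higher for p-UPF1 IP over rIgG IP (2222 as reported), 1 to 3626 transcripts (2935) and, in the rIgG IP over input, 65 to 351 genes (95), with 25 to 295 lower (51). Genes lower in the p-UPF1 IP than in input numbered 3708 to 6321 (6044). The alternatives for the gene lists were added after seeing the data. The low depth of the rIgG IP limits every comparison with it.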
